A study of Mus musculus with 22 samples.

Results

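The G2/M and mitotic genes described here are 38 genes whose products act between the end of DNA replication and the separation of the daughter cells. They were chosen by name and matched to the gene symbols of 2 expression tables, each of which lists 24353 symbols, and all 38 were found in both tables. RNA was sequenced from EMT6 tumours, an allograft of a mouse mammary carcinoma line, in BALB/c mice labelled wild type. The mice were 5 to 6 weeks old and received 200000 cells, with both inguinal fat pads injected; the labels do not say whether this number is per pad. Beads against CD45, a surface protein of leukocytes, divided each dissociated tumour into a CD45-positive fraction, enriched for leukocytes, and a CD45-negative fraction, which holds the tumour cells and the CD45-negative cells of the host. JQ1, which displaces BET bromodomain proteins from acetylated chromatin, was given at 50 mg/kg by daily gavage. Paclitaxel, which stabilises microtubules, and an antibody against PD-L1, the ligand of the T cell receptor PD-1, were each given at 10 mg/kg in 2 injections a week.

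The 5 groups were JQ1 alone, JQ1 with anti-PD-L1, JQ1 with paclitaxel, all 3 drugs together, and vehicle. Every treated group received JQ1, so paclitaxel and the antibody could be examined only on top of it. The labels do not say what the vehicle mice were injected with. The CD45-negative fraction gave 12 libraries, with 3 in each of the groups that had paclitaxel and 2 in each of the others. The CD45-positive fraction gave 10 libraries, 2 per group, from 10 of the same tumours. The labels tie the libraries of the vehicle group, of the JQ1 group and of the group with JQ1 and anti-PD-L1 to 1 mouse code per group, a right and a left tumour each. That code is not explained, and p-values therefore measure the spread between tumours that may share an animal. Where 1 value per mouse code was used as an alternative, those 3 groups had 1 value each, the spread came from the groups with paclitaxel, and the lone values were assumed to vary alike.

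Entry into mitosis is driven by the kinase CDK1 bound to cyclin B, after which PLK1 and the Aurora kinases build the spindle and kinetochores attach chromosomes to it. Unattached kinetochores hold back the ubiquitin ligase APC/C, which, once released with its activator CDC20, destroys cyclin B and securin and lets sister chromatids part. Most of these genes are transcribed late in the cell cycle under FOXM1, the MYB-MuvB complex and NF-Y, so that their RNA is high in dividing cells and low in resting ones. Paclitaxel is known for holding dividing cells in mitosis by suppressing microtubule dynamics.

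Promoter sequences are shown because late cell cycle promoters are known for CCAAT boxes, which NF-Y binds, and for the cell cycle homology region, which the MuvB complex binds. RefSeq promoter windows on GRCm38.p6, from 250 bases before to 50 bases after a transcription start, were matched by symbol for 31 members and gave 33 windows, since ECT2 and PRC1 had 2 starts each. The other 7 members were CCNA2, CDC25C, FOXM1, AURKB, TPX2, DLGAP5 and KIF20A. The letters CCAAT, on either strand, occurred in 27 of the 33 windows (81.8%) and in 37.4% of all 32851 promoter windows of the table. The letters TTTGAA or TTCGAA, the core of the cell cycle homology region, on either strand, occurred in 27 of 33 windows (81.8%), against 19.2% of all windows, and both motifs occurred together in 24 (72.7%), against 7.52%. At least 2 CCAAT boxes lay in 18 windows (54.5%), against 11.7% of all. Each motif was counted by itself, whether or not it overlapped the other, and the 2 windows of a gene may share bases. The 120 bases around 7 starts follow, 5′ to 3′ on the strand of the gene, with every CCAAT box and homology region core in capitals, whichever strand it was read on. CCNB2 has 3 CCAAT boxes with a core at the start, UBE2C and CDC20 had the highest mean levels in the CD45-negative fraction, CDK1 has 2 cores, CENPF and KIF23 carry the core directly after the start, and BIRC5 is shown because its window held neither motif.
CCNB2: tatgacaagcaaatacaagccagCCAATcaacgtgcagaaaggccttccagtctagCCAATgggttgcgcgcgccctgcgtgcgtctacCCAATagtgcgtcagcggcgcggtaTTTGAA
UBE2C: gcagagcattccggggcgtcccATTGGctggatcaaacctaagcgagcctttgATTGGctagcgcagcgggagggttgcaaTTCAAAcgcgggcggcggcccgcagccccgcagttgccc
CDC20: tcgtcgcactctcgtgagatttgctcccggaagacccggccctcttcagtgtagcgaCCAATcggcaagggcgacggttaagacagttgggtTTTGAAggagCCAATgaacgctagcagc
CDK1: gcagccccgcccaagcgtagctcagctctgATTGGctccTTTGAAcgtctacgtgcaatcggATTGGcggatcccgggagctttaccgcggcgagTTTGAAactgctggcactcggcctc
CENPF: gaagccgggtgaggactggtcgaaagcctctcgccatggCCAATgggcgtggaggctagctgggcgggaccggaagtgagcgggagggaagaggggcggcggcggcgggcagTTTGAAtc
KIF23: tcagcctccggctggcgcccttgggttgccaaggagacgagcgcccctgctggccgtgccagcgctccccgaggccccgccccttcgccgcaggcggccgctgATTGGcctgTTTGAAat
BIRC5: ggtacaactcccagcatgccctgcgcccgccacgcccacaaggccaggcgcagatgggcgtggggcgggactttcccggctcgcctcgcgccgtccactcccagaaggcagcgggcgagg

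On GRCm38.p6 these stretches lie at chr9:70421545-70421664 (minus strand) for CCNB2, chr2:164769819-164769938 (plus strand) for UBE2C, chr4:118437334-118437453 (minus strand) for CDC20 and chr10:69352903-69353022 (minus strand) for CDK1. Those of CENPF, KIF23 and BIRC5 lie at chr1:189688077-189688196 (minus strand), chr9:61946790-61946909 (minus strand) and chr11:117849127-117849246 (plus strand). The expression tables were made on mm9, so no coordinate was carried between the builds. Over all member windows the 37 homology region cores began at a median of −15 bases from the start, against −125 for all promoters, and the 61 CCAAT boxes at a median of −67, against −92. Neither motif was found in the windows of BIRC5, NUF2 and NUSAP1. A match of letters describes the window and is neither a site nor a cause, and the absence of a match says only that these letters are not there.

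**Figure D1:**
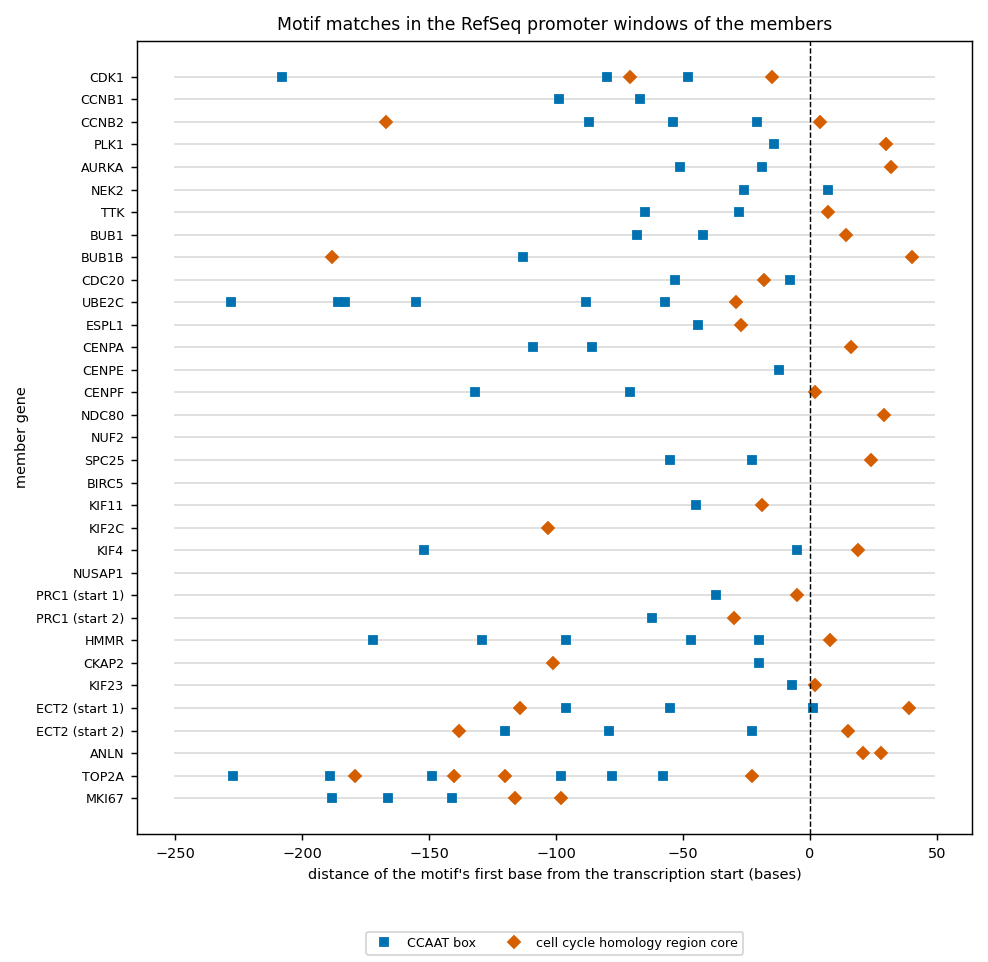
Position of each motif match in the 33 promoter windows, as the distance in bases of its first base from the transcription start (dashed line at 0). Squares are CCAAT boxes and diamonds are cores of the cell cycle homology region; most diamonds sit near the start, with the squares before them, and BIRC5, NUF2 and NUSAP1 have neither.

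The values were FPKM, reads scaled by transcript length and library size, so levels of different genes can be set side by side, but read totals and absolute depth are unknown. Steps between low values gave each library's depth relative to its fraction, 0.547 to 1.79 in CD45-negative and 0.629 to 1.71 in CD45-positive libraries. Sequencing depth went with the groups in part, since the CD45-negative JQ1 libraries stood at 0.554 and 0.653 and the vehicle libraries at 1.79 and 1.13. PTPRC, which encodes CD45, lay at 38.6 to 73.6 FPKM in CD45-positive libraries and at 1.25 to 8.65 FPKM in CD45-negative ones. The 9 epithelial markers, with keratins, summed to 299.8 to 895 FPKM in the CD45-negative fraction and the 10 fibroblast and collagen genes to 1315 to 2884 FPKM. Differences were tested on log2(FPKM + 1) with limma over 10780 CD45-negative and 10340 CD45-positive genes, among them all 38 members, and a gene was called where the Benjamini-Hochberg adjusted p was under 0.05.

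The 38 genes together were lowest in tumours that had received JQ1 with paclitaxel, in both fractions. In the CD45-negative fraction their summed level was 487 and 586 FPKM under JQ1, 673 and 646 under JQ1 with anti-PD-L1, 359, 315 and 345 under JQ1 with paclitaxel and 576, 359 and 607 under all 3 drugs, against 723 and 746 in vehicle tumours. Every treated library therefore lay below both vehicle libraries, and 1 of the 3-drug tumours lay as low as the tumours with JQ1 and paclitaxel. In the CD45-positive fraction the sum was 167 and 142 FPKM under JQ1, 160.0 and 196 under JQ1 with anti-PD-L1, 126 and 88.7 under JQ1 with paclitaxel and 281 and 183 under all 3 drugs, against 329 and 365 in vehicle tumours. Vehicle was again above every treated library. In these bulk samples fewer dividing cells and less RNA per dividing cell cannot be told apart.

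**Figure D2:**
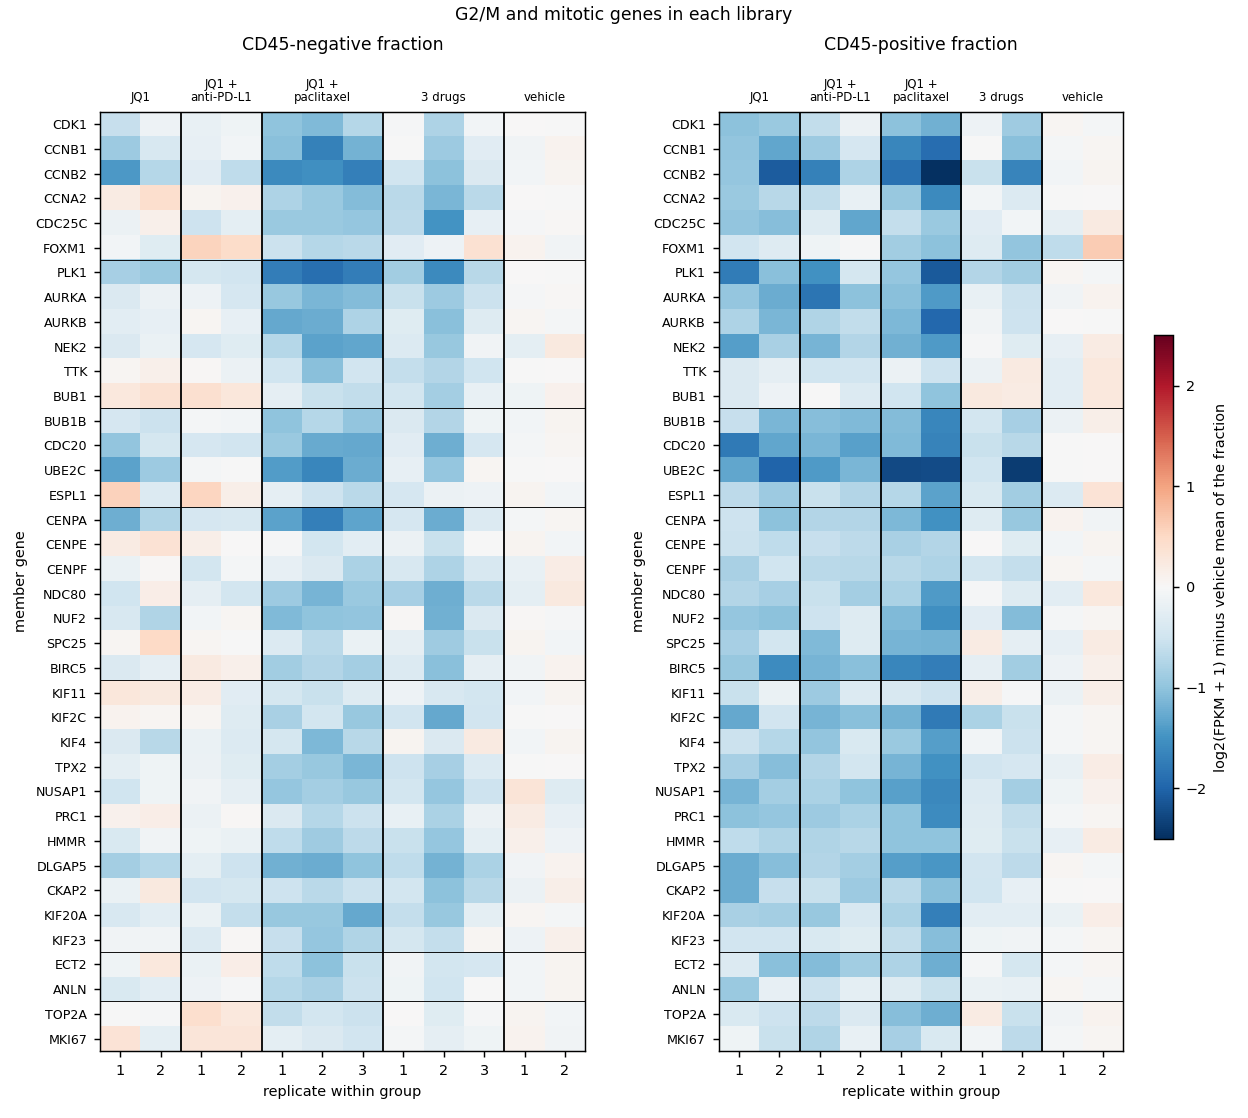
Difference of log2(FPKM + 1) from the vehicle mean of the same fraction, for each of the 38 members (rows, ordered by role with lines between roles) in each library (columns, numbered within groups). Blue is below the vehicle mean; the columns of JQ1 with paclitaxel are blue for nearly every gene in both fractions, and replicate 2 of the 3-drug group is the bluest of its 3 CD45-negative libraries.

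Against vehicle, JQ1 alone lowered a small set of the 38 genes in the CD45-negative fraction. CCNB2, PLK1, UBE2C, CENPA and DLGAP5 fell, 5 of 38, where 9.68% of all genes tested were called lower. No member rose. The differences ran from −1.12 for UBE2C to 0.32 for BUB1, with a median of −0.21, against −0.05 over all genes tested, and 17 members had JQ1 libraries entirely below vehicle, where 33% of all genes did. The member share is near the background. The count of 5 became 0 with relative depth as a covariate, 0 without JQ1 replicate 1 or without either vehicle library, 3 without JQ1 replicate 2, 2 with no filter on low values and 0 with 1 value per mouse code. Epithelial markers summed to 299.8 to 361 FPKM in the JQ1 libraries, against 512 to 895 FPKM in vehicle, and 6 erythroid markers, none at 0, to 1.03 to 3.46 FPKM, against 109.8 to 332 FPKM. Their part in the result was not tested.

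Under JQ1 with paclitaxel the fall reached most of the list. In the CD45-negative fraction 28 of 38 members fell and none rose, where 12.3% of all genes tested were called lower. All 38 differences from vehicle were negative, with a median of −0.86 against −0.07 over all genes, and 37 members had all 3 libraries below both vehicle libraries, as 29.2% of all genes did. PLK1 (−1.78 ± 0.22, adjusted p = 0.000332) and CCNB2 (−1.61 ± 0.23, adjusted p = 0.000842) fell most, and TOP2A (−0.53 ± 0.15, adjusted p = 0.0258) had the smallest called difference. The 10 members that did not pass were BUB1, ESPL1, CENPE, CENPF, SPC25, KIF11, KIF2C, PRC1, CKAP2 and MKI67, at −0.74 for KIF2C to −0.24 for CENPE. The count was 14 without vehicle replicate 1, 11 without vehicle replicate 2 and 3 with 1 value per mouse code, when CCNB2, PLK1 and AURKA were called. CCNB2, PLK1 and AURKA were also the calls of this comparison that held in every alternative tried, that with a lone vehicle value included. Markers of some other cells were lower too. The 6 erythroid markers, with ALAS2 at 0 with JQ1 and paclitaxel, summed to 0.707 to 2.20 FPKM under JQ1 with paclitaxel, against 109.8 to 332 FPKM in vehicle. The 7 neutrophil markers, with CXCR2 at 0 in both groups and LY6G at 0 in vehicle, summed to 10.2 to 11.6 FPKM, against 29.6 to 36.1 FPKM, and the 8 T cell markers, with CD8B1 at 0 in vehicle, to 1.77 to 3.35 FPKM, against 9.86 to 10.4 FPKM. The 9 epithelial markers, none at 0, summed to 344 to 550.3 FPKM, against 512 to 895 FPKM, with overlap. Other markers reached above vehicle, also with overlap. Macrophage and monocyte markers summed to 410 to 1074 FPKM, against 356 to 460, and endothelial markers to 4.48 to 22.8, against 3.585 to 4.63. With the leukocyte level as a covariate 29 members were called, the 28 among them, and the part of the other markers was not tested.

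No member passed the test under JQ1 with anti-PD-L1. In the CD45-negative fraction 1 of the 38 genes had an unadjusted limma p under 0.05, as did 1554 of the 10780 genes tested. None of the 38 was called with limma, where 0.25% of all genes were called in either direction. Their median difference was −0.13, against −0.03 over all genes, and 14 members lay below vehicle without overlap, as 27.6% of all genes did. With all 3 drugs CCNA2, PLK1 and DLGAP5 fell, 3 of 38, where 1.05% of all genes were called lower. All 38 differences were negative, with a median of −0.53 against −0.07 over all genes, and 26 members lay below vehicle without overlap, as 24.2% of all genes did. The 3 calls were lost with a pseudocount of 0.1, with no filter, with relative depth or the leukocyte level as a covariate, with 1 value per mouse code, and without either library of the vehicle, JQ1 or JQ1 with anti-PD-L1 groups or 3-drug replicates 1 or 2. All comparisons with vehicle share the same 2 vehicle libraries.

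**Figure D3:**
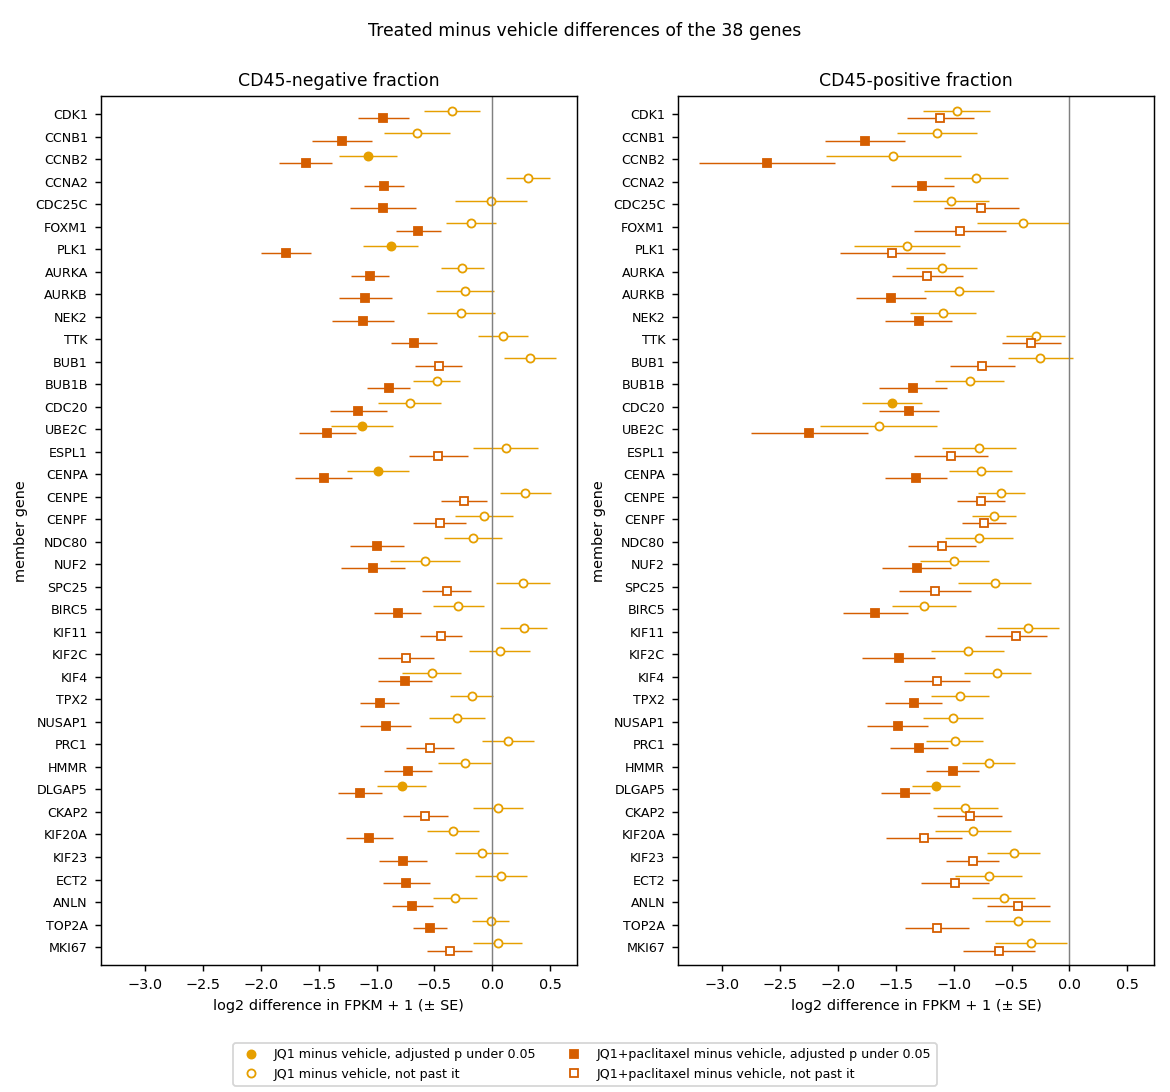
Log2 difference in FPKM + 1 from vehicle for each member, with its standard error, for JQ1 (circles) and JQ1 with paclitaxel (squares) in each fraction; filled symbols passed an adjusted p of 0.05. In the CD45-negative fraction the circles straddle 0, from −1.12 to 0.32, while all squares are below 0; in the CD45-positive fraction both are below 0 for every member.

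Paclitaxel was then compared within JQ1-treated tumours, where both sides of the difference received JQ1. Added to JQ1 in the CD45-negative fraction, it went with lower levels of all 38 genes, by a median of −0.62 against −0.02 over all genes, and 34 members lay below the JQ1 libraries without overlap, as 15.7% of all genes did. CCNA2 alone passed the test (−1.24 ± 0.17, adjusted p = 0.0209), where 0.13% of all genes were called lower. An unadjusted p under 0.05 was found for 29 members, and for 1449 of the 10780 genes tested. Added to JQ1 with anti-PD-L1, paclitaxel again lowered CCNA2 (−0.92 ± 0.17, adjusted p = 0.0388), where 0.408% of all genes were called lower. The median there was −0.36, against −0.05 over all genes, and 20 members lay below without overlap, as 19.5% of all genes did. The call of CCNA2 on JQ1 was lost without either JQ1 library, with relative depth as a covariate and with 1 value per mouse code, while 2 members were called without 3-drug replicate 2. The call on JQ1 with anti-PD-L1 was lost without 7 of the 12 libraries, the JQ1 and JQ1 with anti-PD-L1 libraries, JQ1 with paclitaxel replicate 1 and 3-drug replicates 1 and 2, and also with no filter and with 1 value per mouse code. Without 3-drug replicate 3, 2 members were called.

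Averaged over the groups with and without antibody, paclitaxel lowered 13 of 38 members, where 1.37% of all genes were called lower. They were CCNA2, the kinases PLK1, AURKA, AURKB, TTK and BUB1, the kinetochore genes NDC80 and SPC25, and BIRC5, KIF2C, TPX2, ECT2 and TOP2A. CCNA2 had the largest difference (−1.08 ± 0.12, adjusted p = 0.00226) and TOP2A the smallest (−0.48 ± 0.10, adjusted p = 0.0273). All 38 differences were negative, with a median of −0.48 against −0.04 over all genes, and 10 members had all 6 libraries with paclitaxel below all 4 treated libraries without it, as 1.46% of all genes did. KIF4 lay nearest 0. The 7 neutrophil markers, some at 0, summed to 10.2 to 11.6 FPKM under JQ1 with paclitaxel and 8.18 to 13.0 under all 3 drugs. Without paclitaxel they summed to 18.0 to 36.0 under JQ1 and 58.0 to 63.8 under JQ1 with anti-PD-L1. Epithelial markers reached higher with paclitaxel, at 344 to 550.3 and 543 to 779.9 FPKM. The matching groups without it had 299.8 to 361 and 371 to 504.5 FPKM. The part of these markers in the 13 calls was not tested. The count was 1 when the first JQ1 library or the first library of JQ1 with anti-PD-L1 was left out, 2 and 4 when the second ones were, and 5 without 3-drug replicate 2. Of the JQ1 with paclitaxel libraries, leaving out replicate 1 gave 8 and leaving out replicate 3 gave 7. It was 7 with relative depth as a covariate, 4 with no filter and 0 with 1 value per mouse code.

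Anti-PD-L1, averaged in the same way, went with higher levels of another set. In the CD45-negative fraction 10 of 38 members rose and none fell, where 14% of all genes were called higher and 10.9% lower. They were UBE2C (1.07 ± 0.17, adjusted p = 0.00126), CCNB2 (0.80 ± 0.16, adjusted p = 0.00404), CCNB1, CENPA, FOXM1, PLK1, KIF4, BUB1B, TOP2A and ANLN. PLK1 and TOP2A were called for both drugs, lower with paclitaxel and higher with the antibody. The median of the 38 was 0.22, against 0.03 over all genes. No member had all antibody libraries above all treated libraries without the antibody, where 6.35% of all genes did. UBE2C was as low as 52.6 FPKM under all 3 drugs, against up to 55.1 FPKM under JQ1. CCNB2 was as low as 18.4 FPKM under all 3 drugs, against up to 23.05 FPKM under JQ1. UBE2C and CCNB2 kept the call in every alternative tried, while the count was 6 without JQ1 replicate 1, 5 without either JQ1 with anti-PD-L1 library 16 without 3-drug replicate 2 and 2 with 1 value per mouse code, which were UBE2C and CCNB2. Markers of other cells moved with the antibody in part. The 12 pan-leukocyte markers, none of them at 0, summed to 309 to 449 FPKM under JQ1 with anti-PD-L1 and 246 to 423 under all 3 drugs, against 167 to 251 under JQ1 and 151 to 404 under JQ1 with paclitaxel. With that sum as a covariate 9 members were called, 8 of them among the 10. The erythroid markers, with ALAS2 at 0 in the group with JQ1 and paclitaxel, summed to 33.3 to 67.4 FPKM under JQ1 with anti-PD-L1 and 0.753 to 5.78 under all 3 drugs, against 1.03 to 3.46 under JQ1 and 0.707 to 2.20 under JQ1 with paclitaxel. The epithelial markers, none at 0, summed to 371 to 504.5 FPKM under JQ1 with anti-PD-L1 and 543 to 779.9 under all 3 drugs, against 299.8 to 361 under JQ1 and 344 to 550.3 under JQ1 with paclitaxel. The part of the erythroid and epithelial markers in the result was not tested. The interaction of the drugs was called for none of the 38 genes with limma, where 0.00928% of all genes were called. No member had an unadjusted p under 0.05, against 771 of the 10780 genes tested.

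**Figure D4:**
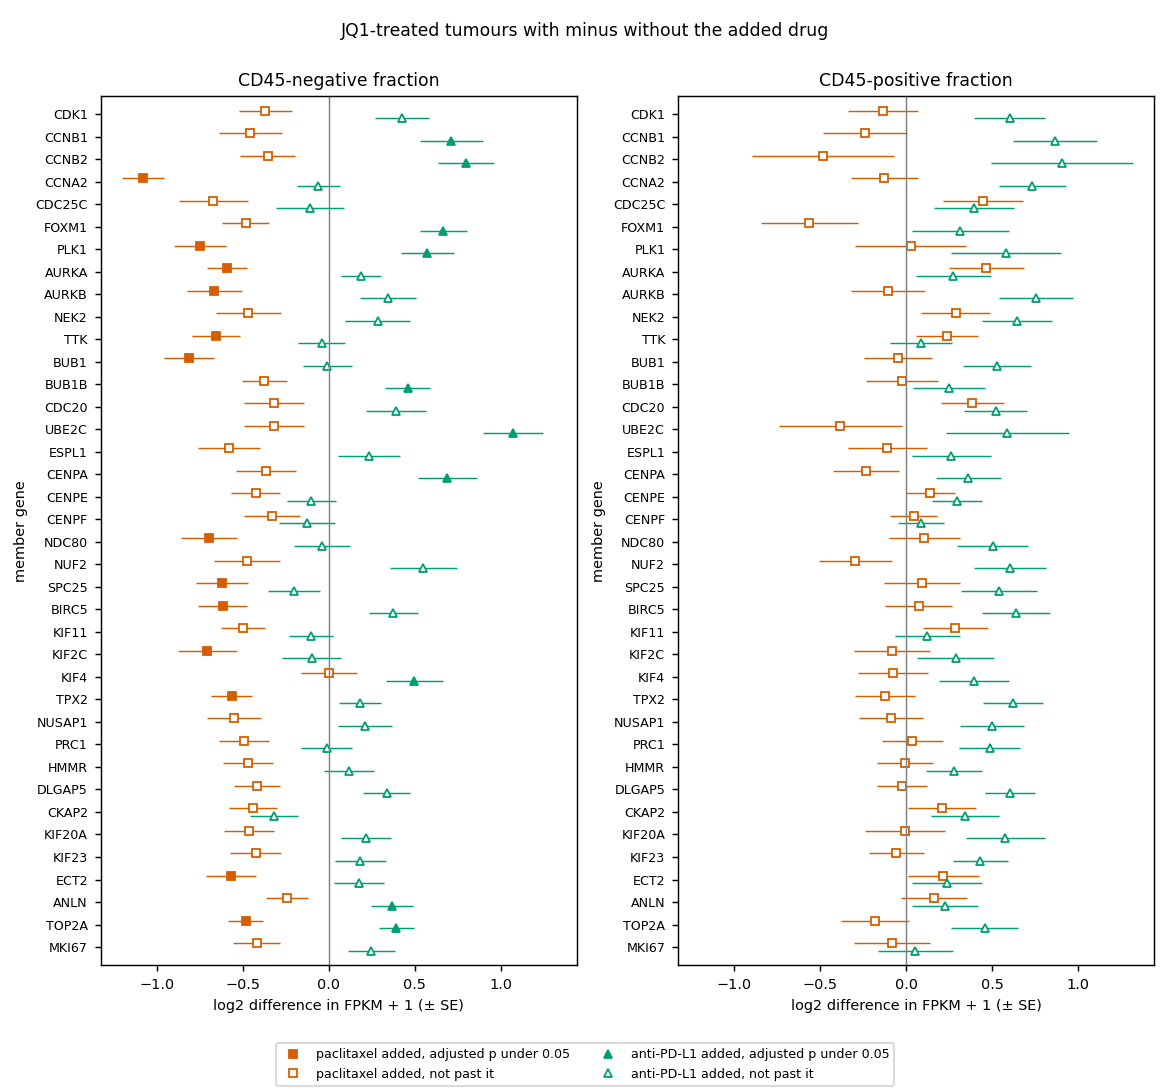
Log2 difference in FPKM + 1, with its standard error, between JQ1-treated tumours with and without paclitaxel (squares) and with and without anti-PD-L1 (triangles), each averaged over the other drug; filled symbols passed an adjusted p of 0.05. In the CD45-negative fraction all squares lie at or below 0, down to −1.08 for CCNA2, and the filled triangles reach 1.07 for UBE2C; in the CD45-positive fraction the squares scatter about 0 and all triangles lie above it.

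In the CD45-positive fraction all 38 differences from vehicle were negative under JQ1, under JQ1 with anti-PD-L1 and under JQ1 with paclitaxel. JQ1 lowered CDC20 (−1.53 ± 0.26, adjusted p = 0.0341) and DLGAP5 (−1.15 ± 0.21, adjusted p = 0.042), 2 of 38, where 0.435% of all genes were called lower. The median was −0.85 against −0.004 over all genes, and 35 members lay below vehicle without overlap, as 26.7% of all genes did. B cell markers, with PAX5 at 0 in vehicle, summed to 147 to 162 FPKM under JQ1, against 8.42 to 9.90 FPKM in vehicle. T cell markers summed to 45.0 to 126 FPKM, against 10.9 to 19.5, and endothelial markers to 24.9 to 28.1, against 4.76 to 8.52. Macrophage and monocyte markers were lower, at 4083 to 5126 FPKM against 5760 to 6566. Erythroid markers, with ALAS2 at 0 under JQ1, were lower too, at 0.915 to 1.04 FPKM against 17.2 to 38.1. The part of these markers was not tested. JQ1 with anti-PD-L1 moved no member past the threshold with limma. An unadjusted p under 0.05 was found for 22 members, and for 735 of the 10340 genes tested. There 0.029% of all genes were called, the median was −0.70 against −0.06, and 36 members lay below vehicle without overlap, as 27.1% of all genes did. Relative depths were 0.739 and 0.671 for JQ1 with anti-PD-L1, against 1.3 and 1.44 for vehicle. The part of depth in this separation was not tested. The 2 calls under JQ1 rest on few libraries, since the count was 0 without JQ1 replicate 1 or either vehicle library or JQ1 with anti-PD-L1 library, 1 without JQ1 replicate 2 or either JQ1 with paclitaxel library, 1 with a pseudocount of 0.1 or a mean of at least 5 FPKM, and 0 with no filter, either covariate or 1 value per mouse code.

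JQ1 with paclitaxel lowered 17 of 38 members in the CD45-positive fraction, where 3.26% of all genes were called lower. The median difference was −1.20, against −0.09 over all genes, and 37 members lay below vehicle without overlap, as 33.5% of all genes did. CCNB2 (−2.61 ± 0.59, adjusted p = 0.0413) and UBE2C (−2.25 ± 0.51, adjusted p = 0.0423) fell most, and HMMR (−1.01 ± 0.23, adjusted p = 0.0434) had the smallest called difference. The other called members were CCNB1, CCNA2, AURKB, NEK2, BUB1B, CDC20, CENPA, NUF2, BIRC5, KIF2C, TPX2, NUSAP1, PRC1 and DLGAP5. Library 2 of this group was the lowest of all 10, with 13 members under 1 FPKM. The count was 0 without that library, 0 without either vehicle library, 8 without the group's replicate 1, 6 without either library of JQ1 with anti-PD-L1, 7 with no filter or a mean of at least 5 FPKM, and 0 with relative depth as a covariate or 1 value per mouse code. The groups' relative depths were 0.905 and 0.629 for JQ1 with paclitaxel, against 1.3 and 1.44 for vehicle. Stromal genes went the other way: the 10 fibroblast and collagen genes summed to 131 to 235 FPKM, against 70.5 to 111 FPKM in vehicle, and the 9 endothelial markers to 53.0 to 76.8 FPKM, against 4.76 to 8.52 FPKM, with none at 0. The 12 pan-leukocyte markers, none at 0, summed to 1838.5 to 1971 FPKM, against 2551.5 to 2800 FPKM in vehicle. The 7 neutrophil markers, with LY6G at 0 with JQ1 and paclitaxel, summed to 237 to 257 FPKM, against 662 to 1058.5 FPKM. Erythroid markers summed to 1.31 to 9.55 FPKM, against 17.2 to 38.1 FPKM in vehicle. Epithelial markers summed to 35.8 to 115 FPKM, against 33.3 to 37.9 FPKM, with overlap. With the fibroblast sum as a covariate 5 members were called, among them CCNA2, CDC20, DLGAP5 and KIF2C. The part of the leukocyte, neutrophil, erythroid, endothelial and epithelial markers was not tested.

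All 3 drugs together left no member called in the CD45-positive fraction with limma, where 0.135% of all genes were called. An unadjusted p under 0.05 was found for 7 members, and for 903 of the 10340 genes tested. The median there was −0.39, against 0.01 over all genes, and 27 members lay below vehicle without overlap, as 20.5% of all genes did. Paclitaxel within JQ1-treated tumours was tested in this fraction too. On JQ1 no member was called with limma, and 0% of all genes were called. There 1 member had an unadjusted p under 0.05, as did 1038 of the 10340 genes tested. The differences were negative for 34 of 38 members, with a median of −0.32 against −0.09 over all genes, and 18 members lay below the JQ1 libraries without overlap, as 26.8% of all genes did. On JQ1 with anti-PD-L1 again none was called, where 0.00967% of all genes were called. There 5 members had an unadjusted p under 0.05, as did 920 of the 10340 genes tested. The differences were positive for 34 of 38 members, with a median of 0.35 against 0.08 over all genes, and 23 members lay above without overlap, as 25.7% of all genes did. Averaged, paclitaxel gave a median of −0.02 with no member called, and 0.0387% of all genes called. No member had an unadjusted p under 0.05, against 977 of the 10340 genes tested. For the antibody all 38 averaged differences were positive, with a median of 0.47 against 0.01 over all genes. None was called with limma, where 0.832% of all genes were called. An unadjusted p under 0.05 was found for 18 members, and for 1936 of the 10340 genes tested. In 7 members all antibody libraries lay above the others, as in 5.64% of all genes. The interaction was called for 0% of all genes. An unadjusted p under 0.05 was found for 8 members, and for 1070 of the 10340 genes tested.

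Cyclins and the kinase they activate came first among the roles. CCNB2, a cyclin B that activates CDK1, had 13.6 and 23.05 FPKM under JQ1, 31.3 and 24.5 under JQ1 with anti-PD-L1, 12.1, 12.6 and 11.1 under JQ1 with paclitaxel and 26.8, 18.4 and 29.7 under all 3 drugs, against 36.7 and 40.2 in vehicle tumours in the CD45-negative fraction. All treated libraries were below vehicle, and the 3 with JQ1 and paclitaxel lay closest together. CCNB1, the main mitotic cyclin, had 16.4 and 23.7 FPKM under JQ1, 27.3 and 30.1 under JQ1 with anti-PD-L1, 14.8, 9.13 and 13.4 under JQ1 with paclitaxel and 31.5, 16.3 and 25.9 under all 3 drugs, against 29.8 and 33.4 in vehicle tumours. Of the comparisons with vehicle only JQ1 with paclitaxel passed the test for CCNB1 (−1.30 ± 0.26, adjusted p = 0.00558), although both JQ1 libraries also lay below vehicle. CDK1 itself fell under JQ1 with paclitaxel (−0.94 ± 0.22, adjusted p = 0.0129), to 13.4, 12.4 and 16.6 FPKM, against 27.8 and 27.8 FPKM in vehicle.

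CCNA2, which encodes cyclin A2, the partner of CDK2 in S phase and of CDK1 in G2, was lower in every library with paclitaxel and higher than vehicle under JQ1. It had 23.3 and 27.3 FPKM under JQ1, 21.02 and 21.9 under JQ1 with anti-PD-L1, 11.3, 10.1 and 8.93 under JQ1 with paclitaxel and 12.3, 8.52 and 12.2 under all 3 drugs, against 20.2 and 20.1 in vehicle tumours. The 6 libraries with paclitaxel lay at 8.52 to 12.3 FPKM and the 6 without it at 20.1 to 27.3 FPKM, with no overlap. CDC25C, the phosphatase that removes inhibitory phosphates from CDK1, had 6.82 and 8.46 FPKM under JQ1, 5.06 and 6.27 under JQ1 with anti-PD-L1, 3.55, 3.54 and 3.41 under JQ1 with paclitaxel and 4.47, 2.06 and 6.47 under all 3 drugs, against 7.51 and 7.78 in vehicle tumours. CDC25C fell under JQ1 with paclitaxel (−0.94 ± 0.28, adjusted p = 0.0376), where all 3 libraries stood close together, while the 3-drug libraries spread widely. FOXM1, a transcription factor of late cell cycle genes, had 6.94 and 5.79 FPKM under JQ1, 11.3 and 10.5 under JQ1 with anti-PD-L1, 4.75, 4.10 and 4.22 under JQ1 with paclitaxel and 5.89, 6.68 and 9.90 under all 3 drugs, against 7.88 and 6.84 in vehicle tumours. FOXM1 was highest with JQ1 and anti-PD-L1, and it rose with the antibody (0.67 ± 0.14, adjusted p = 0.00453) and fell under JQ1 with paclitaxel (−0.64 ± 0.20, adjusted p = 0.0394).

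The CD45-positive fraction held less of these RNAs. CCNB2 had 12.6 and 5.26 FPKM under JQ1, 7.27 and 14.6 under JQ1 with anti-PD-L1, 6.26 and 1.59 under JQ1 with paclitaxel and 17.1 and 7.44 under all 3 drugs, against 24.2 and 26.9 in vehicle tumours. Within each treated group the libraries of CCNB2 differed widely. CCNB1 had 6.25 and 4.79 FPKM under JQ1, 6.67 and 9.76 under JQ1 with anti-PD-L1, 3.64 and 2.83 under JQ1 with paclitaxel and 13.3 and 5.98 under all 3 drugs, against 12.8 and 13.9 in vehicle tumours. Vehicle and the higher 3-drug library overlapped for CCNB1, while the other treated libraries were lower. CCNA2 had 5.48 and 6.64 FPKM under JQ1, 7.01 and 9.79 under JQ1 with anti-PD-L1, 5.39 and 3.09 under JQ1 with paclitaxel and 10.7 and 8.77 under all 3 drugs, against 11.3 and 11.4 in vehicle tumours. Unlike in the CD45-negative fraction, CCNA2 was here lower than vehicle under JQ1 as well (−0.81 ± 0.28, adjusted p = 0.158, not past the threshold), and it fell under JQ1 with paclitaxel (−1.27 ± 0.28, adjusted p = 0.038). CDC25C had 0.585 and 0.5 FPKM under JQ1, 1.49 and 0.273 under JQ1 with anti-PD-L1, 1.06 and 0.654 under JQ1 with paclitaxel and 1.58 and 1.97 under all 3 drugs, against 1.66 and 2.68 in vehicle tumours. FOXM1 had 1.74 and 2.05 FPKM under JQ1, 2.55 and 2.73 under JQ1 with anti-PD-L1, 1.10 and 0.867 under JQ1 with paclitaxel and 2.07 and 0.932 under all 3 drugs, against 1.44 and 4.96 in vehicle tumours. The vehicle values of FOXM1 lay far apart and no comparison was called for either gene in this fraction.

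**Figure D5:**
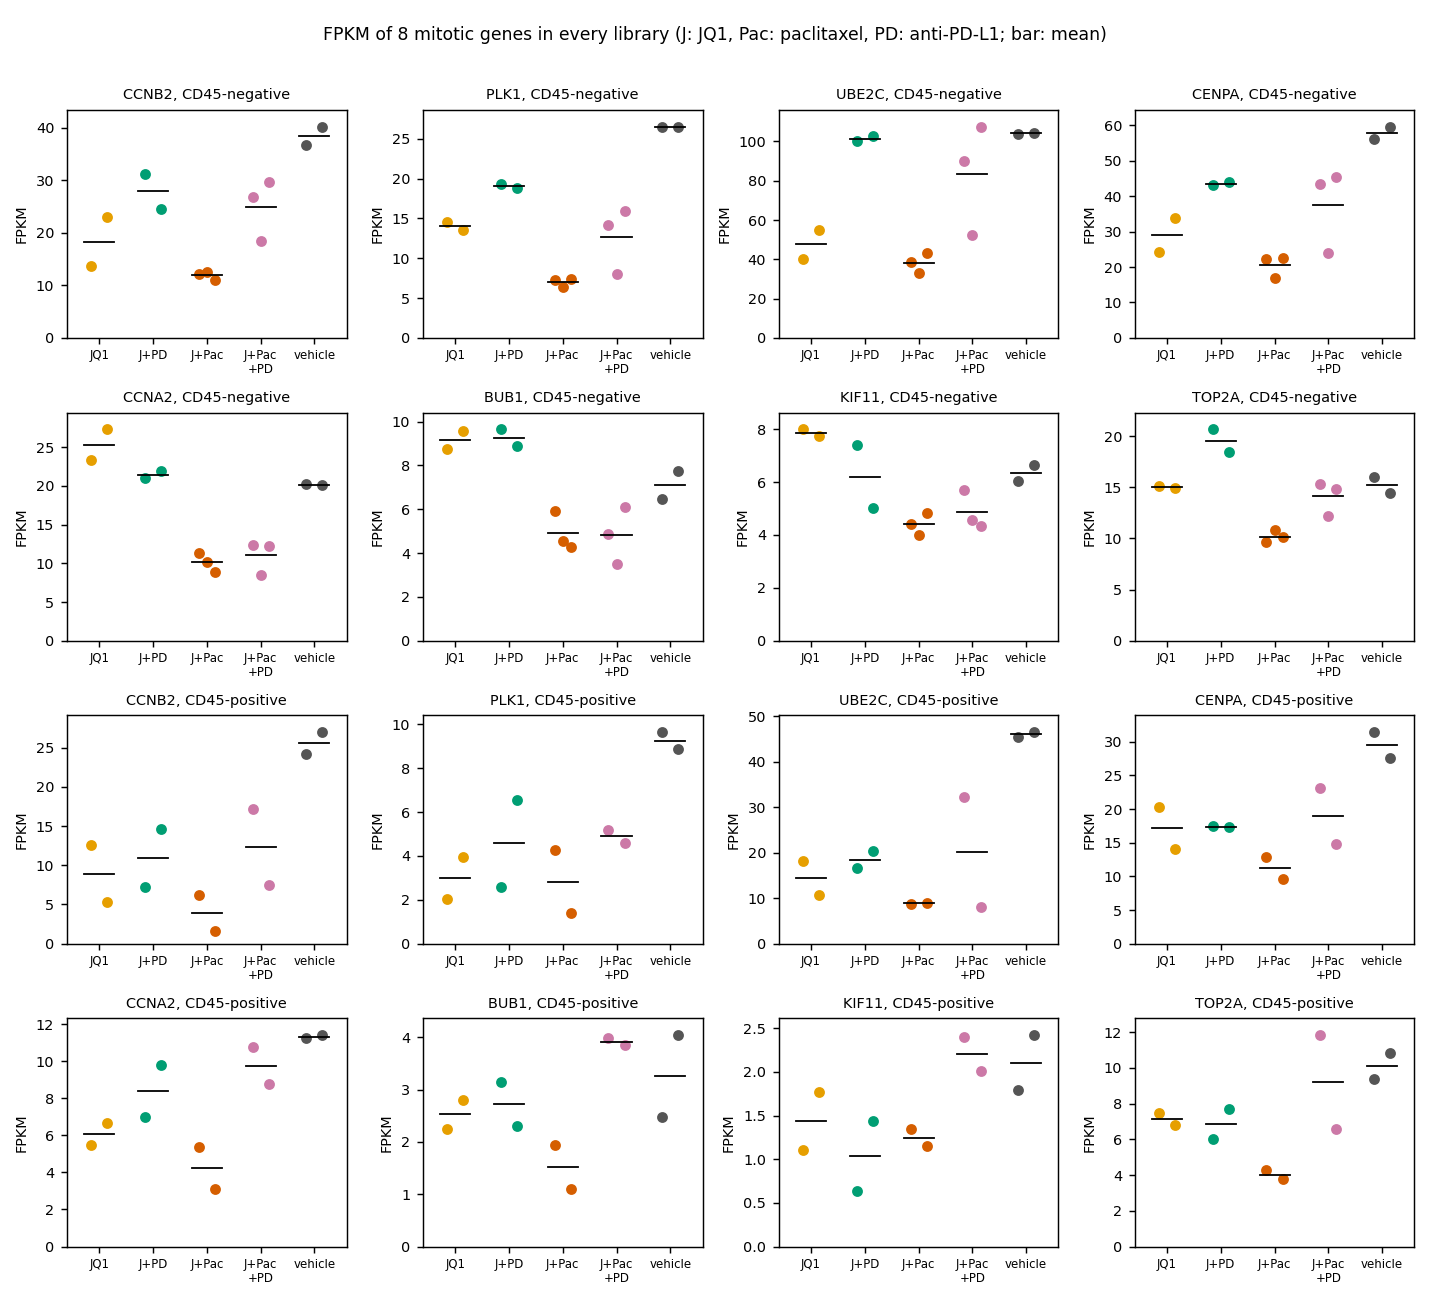
FPKM of 8 members in every library (points) with the group mean (bar), in the CD45-negative fraction (upper 2 rows) and the CD45-positive fraction (lower 2 rows); each vertical axis starts at 0. CCNB2, PLK1, UBE2C and CENPA are lower under JQ1 than in vehicle in both fractions, whereas in the CD45-negative fraction CCNA2, BUB1 and KIF11 are above vehicle and TOP2A near it under JQ1, and all 4 have a lower mean with paclitaxel than in the matching group without it.

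Among the mitotic kinases PLK1 showed the largest difference under JQ1 with paclitaxel in the CD45-negative fraction. PLK1, which drives centrosome maturation and mitotic entry, had 14.5 and 13.5 FPKM under JQ1, 19.3 and 18.8 under JQ1 with anti-PD-L1, 7.27, 6.44 and 7.34 under JQ1 with paclitaxel and 14.2, 8.07 and 15.9 under all 3 drugs, against 26.5 and 26.5 in vehicle tumours. JQ1 alone lowered it (−0.88 ± 0.24, adjusted p = 0.0286), JQ1 with paclitaxel and all 3 drugs did so too, and every treated library was below vehicle. AURKA, the spindle pole kinase, had 13.3 and 15.5 FPKM under JQ1, 15.8 and 12.7 under JQ1 with anti-PD-L1, 8.56, 7.26 and 7.70 under JQ1 with paclitaxel and 11.6, 8.82 and 11.6 under all 3 drugs, against 16.9 and 17.8 in vehicle tumours. AURKA fell under JQ1 with paclitaxel (−1.06 ± 0.17, adjusted p = 0.00159) and with paclitaxel on average (−0.59 ± 0.12, adjusted p = 0.023), with no overlap between libraries with and without paclitaxel. AURKB, the kinase that corrects wrong spindle attachments, had 15.7 and 16.6 FPKM under JQ1, 19.8 and 16.4 under JQ1 with anti-PD-L1, 7.33, 7.58 and 10.8 under JQ1 with paclitaxel and 15.4, 8.77 and 15.1 under all 3 drugs, against 20.01 and 18.4 in vehicle tumours. The fall under JQ1 with paclitaxel passed the test (−1.10 ± 0.23, adjusted p = 0.00714), with all 3 libraries below vehicle.

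The checkpoint kinases TTK and BUB1 were lower with paclitaxel, and JQ1 alone left them at or above the vehicle mean. BUB1, which recruits checkpoint proteins to kinetochores, had 8.73 and 9.57 FPKM under JQ1, 9.65 and 8.87 under JQ1 with anti-PD-L1, 5.92, 4.53 and 4.28 under JQ1 with paclitaxel and 4.87, 3.51 and 6.13 under all 3 drugs, against 6.48 and 7.77 in vehicle tumours. BUB1 was above vehicle in all 4 treated libraries without paclitaxel and below it in all 6 with the drug, and fell with paclitaxel on average (−0.81 ± 0.14, adjusted p = 0.0149). TTK, the kinase that starts the checkpoint, had 3.99 and 4.27 FPKM under JQ1, 3.88 and 3.35 under JQ1 with anti-PD-L1, 2.41, 1.33 and 2.43 under JQ1 with paclitaxel and 2.19, 1.88 and 2.41 under all 3 drugs, against 3.77 and 3.84 in vehicle tumours. TTK fell under JQ1 with paclitaxel (−0.68 ± 0.20, adjusted p = 0.0327) and with paclitaxel on average (−0.66 ± 0.14, adjusted p = 0.0259). NEK2, which separates centrosomes, fell under JQ1 with paclitaxel (−1.12 ± 0.27, adjusted p = 0.014), to 4.49, 2.58 and 2.69 FPKM, against 6.59 and 9.76 FPKM in vehicle.

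AURKB was, in the CD45-positive fraction, the kinase with the largest called fall under JQ1 with paclitaxel (−1.54 ± 0.30, adjusted p = 0.0268). It had 7.35 and 5.44 FPKM under JQ1, 7.41 and 8.28 under JQ1 with anti-PD-L1, 5.50 and 2.66 under JQ1 with paclitaxel and 12.3 and 8.90 under all 3 drugs, against 13.3 and 13.1 in vehicle tumours. NEK2 also fell (−1.30 ± 0.29, adjusted p = 0.0392). PLK1 had 2.03 and 3.94 FPKM under JQ1, 2.58 and 6.57 under JQ1 with anti-PD-L1, 4.26 and 1.39 under JQ1 with paclitaxel and 5.20 and 4.61 under all 3 drugs, against 9.64 and 8.86 in vehicle tumours. Every treated library was below vehicle, but the difference of PLK1 under JQ1 with paclitaxel did not pass (−1.53 ± 0.45, adjusted p = 0.0938). AURKA had 4.04 and 3.16 FPKM under JQ1, 1.78 and 3.85 under JQ1 with anti-PD-L1, 3.79 and 2.69 under JQ1 with paclitaxel and 7.62 and 5.78 under all 3 drugs, against 8.31 and 9.39 in vehicle tumours. The 3-drug libraries of AURKA stood nearest to vehicle. BUB1 had 2.25 and 2.81 FPKM under JQ1, 3.15 and 2.31 under JQ1 with anti-PD-L1, 1.95 and 1.09 under JQ1 with paclitaxel and 3.98 and 3.85 under all 3 drugs, against 2.48 and 4.04 in vehicle tumours. TTK had 0.899 and 1.09 FPKM under JQ1, 0.737 and 0.755 under JQ1 with anti-PD-L1, 1.21 and 0.709 under JQ1 with paclitaxel and 1.20 and 1.83 under all 3 drugs, against 1.04 and 1.92 in vehicle tumours. For TTK the vehicle libraries overlapped most treated groups, and neither BUB1 nor TTK was called there.

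The genes of APC/C control included UBE2C and CDC20, the members of highest mean level in the CD45-negative fraction. UBE2C, the ubiquitin-conjugating enzyme of the APC/C, had 40.4 and 55.1 FPKM under JQ1, 100.2 and 103 under JQ1 with anti-PD-L1, 38.8, 32.8 and 43.3 under JQ1 with paclitaxel and 90.3, 52.6 and 108 under all 3 drugs, against 104 and 104 in vehicle tumours. The JQ1 and JQ1 with paclitaxel libraries were far below vehicle, with called falls of −1.12 ± 0.27 and −1.43 ± 0.25 (adjusted p = 0.0173 and 0.00275), while the libraries with anti-PD-L1 added to JQ1 lay just below vehicle. CDC20, the activator of the APC/C, had 41.4 and 60.7 FPKM under JQ1, 61.9 and 59.3 under JQ1 with anti-PD-L1, 43.1, 33.8 and 33.7 under JQ1 with paclitaxel and 67.7, 35.1 and 61.8 under all 3 drugs, against 80.1 and 85.6 in vehicle tumours. All treated libraries were below vehicle, and the fall under JQ1 with paclitaxel passed the test (−1.16 ± 0.25, adjusted p = 0.00805). BUB1B, the inhibitor of the APC/C within the checkpoint complex, fell under JQ1 with paclitaxel (−0.89 ± 0.19, adjusted p = 0.00718) and rose with the antibody (0.46 ± 0.13, adjusted p = 0.0233). ESPL1, the separase that cuts cohesin, was called in no comparison and lay between 1.10 and 3.97 FPKM.

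UBE2C had 18.1 and 10.8 FPKM under JQ1, 16.7 and 20.3 under JQ1 with anti-PD-L1, 8.82 and 8.99 under JQ1 with paclitaxel and 32.2 and 8.03 under all 3 drugs, against 45.6 and 46.5 in vehicle tumours in the CD45-positive fraction. The 3-drug libraries of UBE2C lay far apart, the lower below both libraries of JQ1 with paclitaxel. CDC20 had 4.96 and 7.26 FPKM under JQ1, 8.16 and 6.96 under JQ1 with anti-PD-L1, 8.49 and 5.35 under JQ1 with paclitaxel and 12.7 and 11.6 under all 3 drugs, against 19.1 and 19.4 in vehicle tumours. Vehicle was above every treated library, and CDC20 fell under JQ1 (−1.53 ± 0.26, adjusted p = 0.0341) and under JQ1 with paclitaxel (−1.38 ± 0.26, adjusted p = 0.0233). BUB1B fell under JQ1 with paclitaxel (−1.35 ± 0.30, adjusted p = 0.0392), and ESPL1 did not pass (−1.03 ± 0.32, adjusted p = 0.109).

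Of the 7 centromere and kinetochore genes 4 fell under JQ1 with paclitaxel in the CD45-negative fraction. CENPA, the histone H3 variant that marks centromeres, had 24.3 and 33.95 FPKM under JQ1, 43.3 and 43.9 under JQ1 with anti-PD-L1, 22.2, 16.98 and 22.7 under JQ1 with paclitaxel and 43.3, 23.9 and 45.5 under all 3 drugs, against 56.2 and 59.7 in vehicle tumours. It fell under JQ1 (−0.99 ± 0.27, adjusted p = 0.0289) and under JQ1 with paclitaxel (−1.46 ± 0.24, adjusted p = 0.00228). BIRC5, survivin, a subunit of the chromosomal passenger complex with AURKB, had 45.2 and 49.5 FPKM under JQ1, 68.3 and 63.3 under JQ1 with anti-PD-L1, 31.4, 34.4 and 31.9 under JQ1 with paclitaxel and 45.7, 27.7 and 49.6 under all 3 drugs, against 54.8 and 61.6 in vehicle tumours. BIRC5 fell under JQ1 with paclitaxel (−0.82 ± 0.20, adjusted p = 0.0171), and the libraries with JQ1 and anti-PD-L1 were the highest. NDC80 (−0.997 ± 0.23, adjusted p = 0.0123) and NUF2 (−1.03 ± 0.27, adjusted p = 0.0229), subunits of the complex that binds microtubule ends, fell too. Their partner SPC25 did not pass there (−0.39 ± 0.21, adjusted p = 0.222) but fell with paclitaxel on average (−0.62 ± 0.15, adjusted p = 0.0429). CENPE, a kinetochore motor, and CENPF, a large kinetochore protein, were called in no comparison and lay at 0.944 to 3.13 FPKM.

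CENPA had 20.3 and 14.00 FPKM under JQ1, 17.4 and 17.3 under JQ1 with anti-PD-L1, 12.9 and 9.63 under JQ1 with paclitaxel and 23.2 and 14.8 under all 3 drugs, against 31.4 and 27.6 in vehicle tumours in the CD45-positive fraction. BIRC5 had 21.4 and 13.5 FPKM under JQ1, 18.2 and 19.8 under JQ1 with anti-PD-L1, 12.9 and 12.04 under JQ1 with paclitaxel and 36.01 and 22.5 under all 3 drugs, against 38.7 and 45.8 in vehicle tumours. Both fell under JQ1 with paclitaxel, BIRC5 with a difference of −1.68 ± 0.28 (adjusted p = 0.0162) and CENPA with −1.33 ± 0.27 (adjusted p = 0.0308), as did NUF2 (−1.32 ± 0.30, adjusted p = 0.0426). BIRC5 in the 3-drug tumours came close to vehicle in 1 library and lay well below in the other. CENPF held the lowest single value of any member in this fraction. It lay at 0.208 to 1.18 FPKM, and only vehicle exceeded 1 FPKM.

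Spindle motors and microtubule-binding proteins made up the largest role, with 7 of 11 called lower under JQ1 with paclitaxel in the CD45-negative fraction. KIF20A, the motor that carries the passenger complex to the midzone, had 21.3 and 23.5 FPKM under JQ1, 25.4 and 18.5 under JQ1 with anti-PD-L1, 14.3, 14.2 and 11.2 under JQ1 with paclitaxel and 18.6, 14.4 and 24.01 under all 3 drugs, against 29.6 and 27.5 in vehicle tumours. It fell under JQ1 with paclitaxel (−1.06 ± 0.21, adjusted p = 0.00491), with every treated library below vehicle. PRC1, which crosslinks midzone microtubules, had 21.2 and 22.2 FPKM under JQ1, 17.6 and 20.2 under JQ1 with anti-PD-L1, 15.1, 11.6 and 13.2 under JQ1 with paclitaxel and 17.2, 10.9 and 17.7 under all 3 drugs, against 22.8 and 16.9 in vehicle tumours. It did not pass (−0.54 ± 0.21, adjusted p = 0.0952), with the vehicle libraries at 22.8 and 16.9 FPKM. KIF11, the motor that pushes spindle poles apart, had 7.99 and 7.75 FPKM under JQ1, 7.39 and 5.01 under JQ1 with anti-PD-L1, 4.40, 4.0 and 4.84 under JQ1 with paclitaxel and 5.70, 4.56 and 4.33 under all 3 drugs, against 6.05 and 6.66 in vehicle tumours. It lay above vehicle in both JQ1 libraries and below it in all 6 libraries with paclitaxel, and neither difference passed.

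Called falls under JQ1 with paclitaxel were also found for DLGAP5, which stabilises kinetochore fibres (−1.14 ± 0.19, adjusted p = 0.00225), TPX2, the activator of AURKA (−0.97 ± 0.17, adjusted p = 0.0029), NUSAP1, a microtubule bundler (−0.92 ± 0.22, adjusted p = 0.0144), and the centralspindlin motor KIF23 (−0.77 ± 0.21, adjusted p = 0.025). KIF4, a chromosome-bound kinesin (−0.75 ± 0.23, adjusted p = 0.0406), and HMMR, a spindle assembly protein (−0.72 ± 0.21, adjusted p = 0.0314), completed the 7. The depolymerising kinesin KIF2C missed the threshold there (−0.74 ± 0.24, adjusted p = 0.0504) and fell with paclitaxel on average (−0.71 ± 0.17, adjusted p = 0.0418). CKAP2, a microtubule stabiliser, was called in no comparison.

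Of these 11 genes 6 fell under JQ1 with paclitaxel in the CD45-positive fraction, NUSAP1 (−1.49 ± 0.26), KIF2C (−1.48 ± 0.32), DLGAP5 (−1.42 ± 0.21), TPX2 (−1.35 ± 0.25), PRC1 (−1.30 ± 0.25) and HMMR (−1.01 ± 0.23). PRC1 had 3.92 and 4.11 FPKM under JQ1, 4.35 and 4.75 under JQ1 with anti-PD-L1, 3.94 and 2.33 under JQ1 with paclitaxel and 6.99 and 5.47 under all 3 drugs, against 8.70 and 9.26 in vehicle tumours. KIF20A had 4.19 and 4.01 FPKM under JQ1, 3.73 and 5.85 under JQ1 with anti-PD-L1, 4.21 and 1.77 under JQ1 with paclitaxel and 6.58 and 6.58 under all 3 drugs, against 7.10 and 9.16 in vehicle tumours. For both genes every treated library was below vehicle, and KIF20A did not pass (−1.26 ± 0.33, adjusted p = 0.0658). KIF11 had 1.10 and 1.77 FPKM under JQ1, 0.642 and 1.44 under JQ1 with anti-PD-L1, 1.34 and 1.15 under JQ1 with paclitaxel and 2.40 and 2.02 under all 3 drugs, against 1.79 and 2.42 in vehicle tumours. Its 3-drug libraries overlapped vehicle, and no comparison was called.

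The 2 cytokinesis genes fell with JQ1 and paclitaxel in the CD45-negative fraction. ANLN, the scaffold of the contractile ring, had 7.68 and 8.41 FPKM under JQ1, 9.30 and 10.1 under JQ1 with anti-PD-L1, 5.93, 5.42 and 6.74 under JQ1 with paclitaxel and 9.56, 7.01 and 10.3 under all 3 drugs, against 9.75 and 10.9 in vehicle tumours. It fell under JQ1 with paclitaxel (−0.69 ± 0.17, adjusted p = 0.0188) and rose with the antibody (0.37 ± 0.12, adjusted p = 0.0455). ECT2, which activates RhoA at the cleavage plane, had 5.29 and 7.21 FPKM under JQ1, 5.09 and 6.69 under JQ1 with anti-PD-L1, 3.37, 2.35 and 3.63 under JQ1 with paclitaxel and 5.39, 3.98 and 4.11 under all 3 drugs, against 5.52 and 6.14 in vehicle tumours. ECT2 fell under JQ1 with paclitaxel (−0.74 ± 0.21, adjusted p = 0.0268) and with paclitaxel on average (−0.57 ± 0.15, adjusted p = 0.0499). In the CD45-positive fraction ANLN had 0.632 and 1.70 FPKM under JQ1, 1.16 and 1.65 under JQ1 with anti-PD-L1, 1.48 and 1.11 under JQ1 with paclitaxel and 1.76 and 1.74 under all 3 drugs, against 2.22 and 2.01 in vehicle tumours. ECT2 had 1.56 and 0.582 FPKM under JQ1, 0.55 and 0.797 under JQ1 with anti-PD-L1, 0.923 and 0.408 under JQ1 with paclitaxel and 2.16 and 1.41 under all 3 drugs, against 2.17 and 2.37 in vehicle tumours. Every treated library was below vehicle for both genes, and no comparison was called.

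TOP2A and MKI67, which are often read as proliferation markers, showed smaller differences than the B-type cyclins under JQ1 with paclitaxel. TOP2A, the topoisomerase that untangles sister chromatids, had 15.1 and 14.9 FPKM under JQ1, 20.6 and 18.4 under JQ1 with anti-PD-L1, 9.62, 10.8 and 10.1 under JQ1 with paclitaxel and 15.3, 12.1 and 14.8 under all 3 drugs, against 15.98 and 14.4 in vehicle tumours. It was near vehicle under JQ1 (−0.01 ± 0.16), fell under JQ1 with paclitaxel and rose with the antibody (0.39 ± 0.10, adjusted p = 0.0156). MKI67, the coat protein of mitotic chromosomes known as Ki-67, had 3.64 and 2.12 FPKM under JQ1, 3.53 and 3.54 under JQ1 with anti-PD-L1, 2.10, 1.86 and 1.63 under JQ1 with paclitaxel and 2.56, 2.15 and 2.43 under all 3 drugs, against 2.89 and 2.48 in vehicle tumours. No comparison was called for MKI67, whose JQ1 libraries lay on either side of vehicle. TOP2A had 7.48 and 6.78 FPKM under JQ1, 6.002 and 7.67 under JQ1 with anti-PD-L1, 4.28 and 3.76 under JQ1 with paclitaxel and 11.8 and 6.55 under all 3 drugs, against 9.36 and 10.8 in vehicle tumours in the CD45-positive fraction. MKI67 had 3.16 and 2.07 FPKM under JQ1, 1.67 and 2.96 under JQ1 with anti-PD-L1, 1.55 and 2.44 under JQ1 with paclitaxel and 3.28 and 1.88 under all 3 drugs, against 3.37 and 3.65 in vehicle tumours. TOP2A was lowest under JQ1 with paclitaxel (−1.14 ± 0.28, adjusted p = 0.0536) and not past the threshold.

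The 2 fractions are in separate tables and were set side by side without a test. In the 10 tumours with both fractions the summed FPKM of the 38 genes in the CD45-positive fraction came to 23.8% to 51.1% of that in the CD45-negative fraction. The share was 34.2% and 24.3% in the JQ1 tumours, 23.8% and 30.3% with anti-PD-L1 added, 35.2% and 25.7% with paclitaxel added and 48.7% and 51.1% with all 3 drugs, against 45.6% and 48.99% in vehicle tumours. The 3-drug and vehicle tumours thus held the higher shares. For 31 members the CD45-positive level was lower in all 10 tumours, and the share of all genes that did so was not counted. ESPL1 and MKI67 differed least between fractions, with CD45-positive medians of 90.3% and 92.7% of the CD45-negative level, while CDC20 and ANLN had 17.3% and 18.5%. Keratin and other epithelial markers summed to 13.8 to 115 FPKM in CD45-positive libraries, and their part in these shares was not tested.

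Other cell cycle genes were counted from 9 lists. Under JQ1 with paclitaxel against vehicle in the CD45-negative fraction, 11 of 38 DNA replication genes were called lower, 9 of 31 other centromere and kinetochore genes, 8 of 20 other spindle and cytokinesis genes, 7 of 13 regulators of mitotic entry, 5 of 19 APC/C and checkpoint genes, 3 of 15 condensin and cohesin genes, 2 of 20 MuvB, E2F and NF-Y regulators, 2 of 8 G1 cyclins and CDKs and 1 of 5 CDK inhibitors. These stand beside 12.3% of all genes called lower and 5.29% called higher. The kinesin gene KIF22 (−1.36 ± 0.18, adjusted p = 0.000581), the kinetochore subunit gene SPC24 (−1.37 ± 0.21, adjusted p = 0.0014), thymidine kinase TK1 (−1.39 ± 0.23, adjusted p = 0.00211) and the securin gene PTTG1 (−1.31 ± 0.22, adjusted p = 0.00215) fell, as did MYBL2, of the MYB-MuvB complex (−0.78 ± 0.16, adjusted p = 0.00698). The CDK inhibitor CDKN1A, which encodes p21, was the only gene of the 9 lists called higher (0.71 ± 0.22, adjusted p = 0.0416), at 86.4 to 138 FPKM, against 53.5 to 79.9 FPKM in vehicle. It was also higher with all 3 drugs (1.42 ± 0.22, adjusted p = 0.0213), at 162 to 201 FPKM.

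JQ1 alone lowered 11 of the 169 genes of these lists tested in the CD45-negative fraction and raised 6. Of all genes 9.68% were called lower and 5.09% higher, so neither share of the lists was above the background. The D-type cyclin CCND1 (−1.10 ± 0.22, adjusted p = 0.00676) and WEE1, the kinase that restrains CDK1 (−1.16 ± 0.34, adjusted p = 0.0384), fell, and CCNE2, an E-type cyclin (0.96 ± 0.24, adjusted p = 0.0201), rose. With paclitaxel on average 21 of the 169 genes fell and CDKN1A (0.76 ± 0.16, adjusted p = 0.0246) rose, where 1.37% of all genes were called lower and 2.19% higher. Condensin genes were among them, 5 of 15 in the condensin and cohesin list, NCAPG (−0.80 ± 0.15, adjusted p = 0.018) first. With the antibody 12 of 38 DNA replication genes rose, where 14% of all genes did, and CCND1 rose (1.36 ± 0.14, adjusted p = 0.000115). CCND1 had 29.9 to 30.3 FPKM under JQ1 with anti-PD-L1 and 25.2 to 35.2 FPKM under all 3 drugs, against 9.82 to 15.0 FPKM under JQ1 and 8.17 to 11.2 FPKM under JQ1 with paclitaxel. In the CD45-positive fraction JQ1 with paclitaxel lowered 4 of 28 centromere and kinetochore genes, 3 of 16 spindle and cytokinesis genes, 3 of 12 entry regulators and 2 of 36 replication genes and no other gene of the lists, where 3.26% of all genes were called lower. The kinase gene PBK (−1.94 ± 0.27, adjusted p = 0.00805) and CDCA8, of the passenger complex (−1.85 ± 0.33, adjusted p = 0.0196), were among them.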

How the data were processed

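RNA-seq libraries of 2 tumour fractions were compared within each fraction. The authors deposited FPKM values per gene symbol, 1 table per fraction. Per the submitters' processing notes STAR 2.5.1b and mm9 were used, and the step from alignment to FPKM is not given in the sources used here. Values were taken as log2(FPKM + 1), for genes of at least 1 FPKM in at least 2 libraries, and fitted with limma 3.58.1 in R 4.3.3 with a trended prior over all groups of a fraction, with 7 residual degrees of freedom in the CD45-negative and 5 in the CD45-positive fraction. Fold changes on this scale understate changes of low genes. Adjusted p is by Benjamini-Hochberg over all genes tested, for 9 comparisons per fraction, and each p is two-sided. The fit was also run on simulated data in which libraries varied independently, so it could not show what tumours of a shared mouse code do to the calls. FPKM are not counts, and relative depth was read from the steps of low values, of which 76.8% and 79.9% were whole multiples in the CD45-negative and CD45-positive tables within a tolerance of 0.05. No 2 libraries held identical values.

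The members and all gene lists were chosen with earlier results of these data known. A gene of the marker lists is not reported here. Values in every library are given for the 2 members of highest mean CD45-negative FPKM in each role and the 5 members of lowest p for paclitaxel on average in each fraction, and otherwise the largest and smallest called differences are named. From each other list up to 3 called genes of lowest p could be named. Alternatives were another pseudocount, 2 filters, median-of-ratios scaling, relative depth or another cell type's level as a covariate, 1 value per mouse code, and leaving out each library. Tables were handled with Python 3.11.15, pandas 2.3.3 and numpy 2.4.6.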

Additional observations from a re-analysis of the deposited data

Results flagged for a closer look

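These members are listed because every library moved in opposite directions in the pair of settings compared, without overlap with its control libraries. Values are the CD45-negative minus the CD45-positive log2 difference in FPKM + 1 unless stated otherwise, and differences between the fractions were not tested, since the tables are separate. Beside each count stands the share of all genes that moved the same way without overlap, among 9618 genes tested in both fractions.

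When paclitaxel was added to JQ1 with anti-PD-L1, 12 members were lower in the CD45-negative and higher in the CD45-positive fraction. They made up 31.6% of the 38, where 3.49% of all genes moved this way. None of the 12 was called in either fraction. CD45-positive relative depths were 1.71 and 1 with all 3 drugs, against 0.739 and 0.671 for JQ1 with anti-PD-L1. The part of depth in this separation was not tested. CD45-negative 3-drug replicate 3 had no CD45-positive library of its tumour. The members were AURKA (−1.446), AURKB (−0.855), TTK (−1.065), BUB1 (−1.246), BUB1B (−0.782), CENPE (−0.783), NDC80 (−1.095), SPC25 (−1.288), BIRC5 (−1.276), KIF2C (−1.040), HMMR (−0.757) and DLGAP5 (−0.698). When paclitaxel was added to JQ1 alone, the member of this kind was CDC25C (−1.196), 1 of 38, where 0.749% of all genes moved this way.

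Under JQ1 against vehicle the members higher in the CD45-negative and lower in the CD45-positive fraction were CCNA2 (1.119), CENPE (0.875), KIF11 (0.627) and KIF2C (0.944), 4 of 38, where 1.73% of all genes did the same. Under JQ1 with anti-PD-L1 against vehicle they were CCNA2 (0.493), ESPL1 (0.996), BIRC5 (1.287), TOP2A (0.851) and MKI67 (0.771), 5 of 38, where 3.3% of all genes did. Both comparisons share the vehicle libraries.

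Within the CD45-positive fraction 7 of 38 members were lower with paclitaxel on JQ1 and higher with paclitaxel on JQ1 with anti-PD-L1, as 8.39% of the 10340 genes tested there were. The second difference minus the first came to BUB1 (0.910), CENPE (0.639), SPC25 (1.226), BIRC5 (0.984), HMMR (0.611), DLGAP5 (0.487) and KIF23 (0.596). The interaction term of limma tests these differences, and none passed, with adjusted p of 0.431 to 0.588.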

How the results depend on the processing

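The 80 differences of members that passed the test were recomputed 1467 times under the alternatives, and none changed direction. In 960 cases the call was kept and in 507 it was lost. The calls that held under every alternative tried numbered 5, CCNB2, PLK1 and AURKA for JQ1 with paclitaxel against vehicle and CCNB2 and UBE2C for the antibody, all in the CD45-negative fraction. With 1 value per mouse code 75 calls were lost, with relative depth as a covariate 42, with no filter 39, with another cell type's level as a covariate 20, with median-of-ratios scaling 8, with a pseudocount of 0.1 5 and with a mean of at least 5 FPKM 2. Averaging by mouse code leaves 1 value in each of the 3 groups without paclitaxel, so the spread comes from the 2 groups with paclitaxel, and a lone value is assumed to vary alike; the same holds of the 1 library that remains when a group of 2 loses the other. The cause of the other losses was not tested.

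In the CD45-negative fraction the count of members called under JQ1 was 5, and it was 2 with no filter, 0 with the depth covariate and 0 by mouse code. Leaving out 1 library gave 0 to 6. Under JQ1 with paclitaxel the count was 28, and 3 by mouse code, with 11 to 31 when 1 library was left out. With all 3 drugs the 3 calls became 0 with a pseudocount of 0.1, no filter, the depth covariate, the leukocyte covariate or mouse codes, and 0 to 3 when 1 library was left out. For paclitaxel on JQ1 the 1 call became 0 with the depth covariate and by mouse code, with 0 to 2 when 1 library was left out. For paclitaxel on JQ1 with anti-PD-L1 it became 0 with no filter and by mouse code, again with 0 to 2. For paclitaxel on average the 13 became 4 with no filter, 7 with the depth covariate and 0 by mouse code, with 1 to 15 when 1 library was left out. For the antibody on average the 10 became 2 by mouse code, with 5 to 16.

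In the CD45-positive fraction the 2 calls under JQ1 became 1 with a pseudocount of 0.1 or a mean of at least 5 FPKM, and 0 with no filter, the depth covariate, the fibroblast covariate or mouse codes, with 0 to 2 when 1 library was left out. Under JQ1 with paclitaxel the 17 became 7 with no filter or a mean of at least 5 FPKM, 5 with the fibroblast covariate and 0 with the depth covariate or mouse codes, with 0 to 18 when 1 library was left out. No paired analysis was possible between treatments, because the treatment groups compared within a fraction share no tumour and no mouse code. The fractions are paired by tumour in 10 tumours, but each has its own table, and no test was run across them. Absolute depth is unknown, which limits the low members most, and a group has 2 or 3 libraries.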
